A study of Homo sapiens with 5 samples.

Results

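The p53 target genes described here were 9 genes chosen by symbol, CDKN1A, MDM2, GADD45A, BAX, BBC3, TP53I3, SESN1, FAS and RRM2B, out of the 19716 genes with a read in at least 1 of 5 RNA libraries. They were picked for their place in the p53 pathway and not by a rule on measured values, although earlier results of these data were known. All 9 had reads in all 5 libraries. MDM4, a relative of MDM2 that holds p53 inactive, was read beside them.

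The cells were HEK293T, derived from human embryonic kidney and carrying the large T antigen of SV40. In 4 groups the cells received 5 guides (uPA sgRNAs) against the promoter of uPA, whose gene symbol is PLAU, and a plasmid for a fusion protein, in which nuclease-dead Cas9 (dCas9) carries BFP, a fluorescent protein, and a partner. The partner was EGFP in dCas9-BFP-EGFP, the catalytic domain of the maintenance methyltransferase in dCas9-BFP-DNMT1, and that of a de novo methyltransferase in dCas9-BFP-DNMT3A and in dCas9-BFP-DNMT3B. The fifth group received pUC19, a plasmid with neither dCas9 nor guides, so that the guides, dCas9, BFP and the partner domain cannot be told apart in any comparison with it. In all groups X-tremeGENE 9 and 1 ug of plasmid were used and RNA was collected after 48 h. The labels give all 5 groups a sort for BFP-positive cells, pUC19 included, and how control cells without BFP were gated was not stated.

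Each group had 1 library, so no difference between groups has a replicate check. The libraries held 26250000 to 36140000 reads (rounded to 4 digits), with pUC19 the deepest, and 16688 genes had a read in all 5. Against pUC19 the median log2 ratio of all genes of at least 1 TPM was -0.14 in the DNMT1 fusion and between -0.03 and 0.00 in the other fusions, and it was -0.02 in the DNMT1 fusion after TMM scaling. PLAU, the gene under the guides, had 106 reads in pUC19 and 6, 6, 1 and 4 reads in the DNMT1, DNMT3A, DNMT3B and EGFP fusions. Of the 6 markers set for the line, all were present in all libraries, from 6.08 TPM (PAX2 in the EGFP fusion) to 599 TPM (VIM in the DNMT3A fusion). NEFM, the neurofilament gene among them, stood at 193 TPM in pUC19 and between 34.3 and 60.2 TPM in the fusions, and its part in the results below was not tested. Of the 6 markers of other cell types, COL1A2 had no row, HBB was at 0 in the 4 fusions, and none of the others was above 1.34 TPM.

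p53 is a transcription factor that accumulates after DNA damage and other stress and switches on genes for cell cycle arrest, apoptosis, repair and metabolism. MDM2, itself a target, marks p53 for degradation and so closes a feedback loop. The SV40 large T antigen binds p53 and the RB proteins, and cells with it are known for high amounts of p53 protein that is held from its targets. RNA counts report neither the amount nor the activity of the p53 protein, and transcripts of large T were not analysed here.

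p53 binds a response element of 20 bases made of 2 adjoining units of 10, each with 3 purines, a C, a pair of A or T letters, a G and 3 pyrimidines. The consensus is its own reverse complement, so a search reads both strands at once. Within 3000 bp on either side of the canonical start site (GENCODE on GRCh37, no spacer between the units, no mismatch in the 4 central letters of a unit and at most 2 elsewhere) a match was found for 4 of the 9 genes (44.4%). Among 45 other p53 targets 14 had a match (31.1%), and among the 16912 protein-coding genes of the files 479 did (2.83%). Both lists were chosen as known p53 targets, so their higher shares are not a result of these data. The matches of 3 of the 4 genes are shown because these are the letters that p53 is known to read in its targets. The fourth match, of RRM2B, is named only. Capitals mark the central letters of both units.

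CDKN1A, chr6:36644226-36644245, plus strand: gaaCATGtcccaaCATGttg
GADD45A, chr1:68152458-68152477, plus strand: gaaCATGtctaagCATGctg
FAS, chr10:90751066-90751085, plus strand: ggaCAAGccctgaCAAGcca

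The CDKN1A match began 2265 bp upstream of the canonical start site, outside the canonical transcript and over the first annotated base of the locus (chr6:36644237), and had 18 of 20 consensus letters. The GADD45A match lay in intron 3, 1574 bp into the gene, with 19 of 20 letters, and the FAS match in intron 1, 652 bp into the gene, with 18 of 20. For MDM2, BAX, BBC3, TP53I3 and SESN1 no match was found, which says only that these letters are not in this window. A match is a description of sequence and not evidence of binding. Within 500 bp of the start site 7 of the 9 genes had a CpG-rich promoter (77.8%), against 67.3% of protein-coding genes. TP53I3, with an observed to expected CpG ratio of 0.49, and FAS, with 0.58, fell below the limit of 0.6.

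CDKN1A was higher in all 4 fusion libraries than in pUC19, between 2.13-fold and 3.24-fold. GADD45A was above pUC19 in all 4 fusions and passed the thresholds in the DNMT3A fusion, at 2.44-fold. RRM2B went the other way, at 0.447 to 0.583 times the pUC19 level, and passed in the DNMT3A and EGFP fusions. MDM2, TP53I3 and BBC3 stood above pUC19 in all 4 fusions and BAX below it, SESN1 and FAS were on either side of it, and none of these 6 reached 2-fold. The 4 comparisons share the pUC19 library.

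A gene was called where a two-sided exact test of the reads of both libraries gave a Benjamini-Hochberg adjusted p of at most 0.001 and the fold change of TPM + 0.1 was at least 2. TPM is the read count per transcript length, scaled to 1000000 per library. The test compares 2 libraries, not 2 conditions, and covers the sampling of reads only. In the DNMT1 fusion 1 of the 9 was called higher and 0 lower, where 1.53% and 3.63% of all genes tested were. In the DNMT3A fusion 2 were called higher and 1 lower, beside 4.4% and 4.96% of all genes. In the DNMT3B fusion 1 was higher and 0 lower, beside 4.47% and 4.29%. In the EGFP fusion 1 was higher and 1 lower, beside 2.6% and 3.1%. With an assumed coefficient of variation of 0.2 between libraries in place of read sampling alone, 0 of the 9 were called in any fusion, beside 0.205%, 0.717%, 0.617% and 0.308% of all genes in the DNMT1, DNMT3A, DNMT3B and EGFP fusions.

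**Figure D1:**
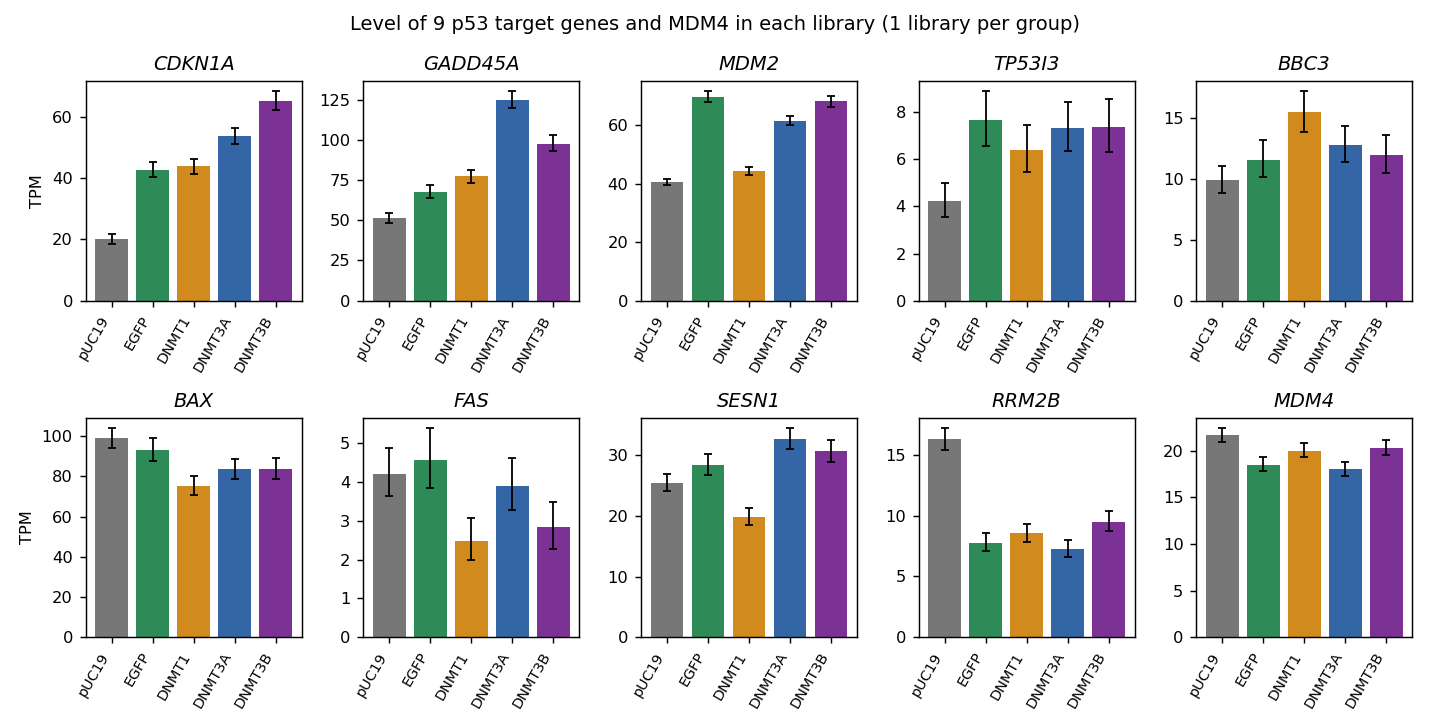
Level of the 9 p53 targets and MDM4 in TPM (vertical axis, linear, from 0) in each of the 5 libraries (horizontal axis). Bars are single libraries and error bars are 95% exact Poisson intervals, which cover counting error only; CDKN1A is lowest in pUC19 (20.1 TPM) and RRM2B is highest there (16.3 TPM).

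Of the regulators, MDM4 was close to level, with 21.7 TPM in pUC19 and 18 to 20.3 TPM in the fusions. In bulk RNA, fewer cells with a transcript and less of it per cell cannot be told apart.

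MDM2 (chr12:69201957-69239324, plus strand) stood at 40.5 TPM in pUC19, 44.4 in the DNMT1 fusion, 61.5 in the DNMT3A fusion, 68.1 in the DNMT3B fusion and 69.7 in the EGFP fusion. The DNMT1 fusion was near the control and the other 3 fusions formed a higher set. The fold over pUC19 was 1.1 (95% interval 1.05 to 1.14) in the DNMT1 fusion and 1.72 (1.66 to 1.79) in the EGFP fusion. MDM2 overlaps CPM on the other strand, and unless strand was used in counting, which was not stated, reads of such a pair cannot be told apart.

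Of the arrest genes, CDKN1A (chr6:36644237-36655114, plus strand) encodes p21, an inhibitor of cyclin-dependent kinases. It stood at 20.1 TPM in pUC19, 42.7 in the EGFP fusion, 43.8 in the DNMT1 fusion, 53.7 in the DNMT3A fusion and 65.0 in the DNMT3B fusion. The lowest fusion library was thus more than 2-fold above pUC19, while the exact test did not separate the EGFP and DNMT1 fusions (adjusted p = 0.238, fold 1.03, 95% interval 0.946 to 1.11). The fold over pUC19 was 2.13 (1.94 to 2.34) in the EGFP fusion, 2.18 (1.99 to 2.4) in the DNMT1 fusion, 2.67 (2.45 to 2.92) in the DNMT3A fusion and 3.24 (2.97 to 3.54) in the DNMT3B fusion. The mean log2 ratio was 1.33 ± 0.28 (SD over the 4 fusions, which are different constructs and not replicates). CDKN1A was 1 of 86 genes called higher in all 4 fusions (0.436% of all genes).

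GADD45A (chr1:68150884-68154017, plus strand), a stress-induced gene of growth arrest and repair, stood at 51.1 TPM in pUC19, 67.5 in the EGFP fusion, 77.2 in the DNMT1 fusion, 97.6 in the DNMT3B fusion and 125 in the DNMT3A fusion. All fusions were above the control, and the DNMT3A and DNMT3B fusions were above the other pair. The fold over pUC19 was 1.32 (95% interval 1.21 to 1.44) in the EGFP fusion and 2.44 (2.27 to 2.62) in the DNMT3A fusion. The DNMT3A fusion stood 1.85-fold above the EGFP fusion (1.72 to 1.99; adjusted p = 1.88e-64 by the exact test), below the 2-fold threshold.

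Of the apoptosis genes, BAX (chr19:49458072-49465055, plus strand), which opens the outer membrane of mitochondria, stood at 99.0 TPM in pUC19, 93.3 in the EGFP fusion, 83.8 in the DNMT3B fusion, 83.6 in the DNMT3A fusion and 75.4 in the DNMT1 fusion. Its libraries lay closer together than those of any other of the 9, 1.31-fold from lowest to highest. BBC3 (chr19:47724079-47736023, minus strand) encodes PUMA, which binds and blocks BCL2 proteins. It stood at 9.92 TPM in pUC19 and at 11.6, 12.0, 12.8 and 15.5 TPM in the EGFP, DNMT3B, DNMT3A and DNMT1 fusions. The DNMT1 fusion was the highest, at 1.56-fold over pUC19 (95% interval 1.33 to 1.83), and in the DNMT3B and EGFP fusions the exact test gave adjusted p values of 0.226 and 0.217.

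TP53I3 (chr2:24300303-24308731, minus strand), a quinone oxidoreductase also known as PIG3, stood at 4.24 TPM in pUC19 and at 6.41, 7.34, 7.39 and 7.68 TPM in the DNMT1, DNMT3A, DNMT3B and EGFP fusions. The exact test separated none of the 6 pairs of fusions (adjusted p of 0.347 or more), and the fold over pUC19 ran from 1.51 (95% interval 1.2 to 1.91) to 1.81 (1.44 to 2.28). The gene overlaps FAM228B on the other strand. FAS (chr10:90750414-90775542, plus strand), a death receptor at the cell surface, was the lowest of the 9, with 85 to 185 reads per library. It stood at 4.21 TPM in pUC19, 4.56 in the EGFP fusion, 3.90 in the DNMT3A fusion, 2.84 in the DNMT3B fusion and 2.49 in the DNMT1 fusion. The EGFP and DNMT3A fusions were near the control and the DNMT3B and DNMT1 fusions lay below it, at 0.673 (0.516 to 0.873) and 0.592 (0.452 to 0.769) times its level. Transcripts of its ligand, FASLG, were at 0 in pUC19 and the DNMT3B and EGFP fusions and at no more than 0.0423 TPM in the others.

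SESN1 (chr6:109305512-109416049, minus strand), a sestrin that restrains mTORC1 and takes part in antioxidant defence, stood at 25.4 TPM in pUC19, 28.5 in the EGFP fusion, 30.8 in the DNMT3B fusion, 32.7 in the DNMT3A fusion and 19.9 in the DNMT1 fusion. The DNMT1 fusion was thus the lowest of the 5 libraries, at a log2 ratio to pUC19 of -0.35 where the median of all genes was -0.14, and the other fusions were above the control. The fold over pUC19 was 0.782 (95% interval 0.715 to 0.855) in the DNMT1 fusion and 1.29 (1.19 to 1.39) in the DNMT3A fusion, while the EGFP fusion did not pass an adjusted p of 0.05 (p = 0.0642 by the exact test).

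RRM2B (chr8:103216730-103251189, minus strand) encodes the p53-inducible small subunit of ribonucleotide reductase, the enzyme that makes deoxynucleotides for repair. It stood at 16.3 TPM in pUC19, 9.51 in the DNMT3B fusion, 8.55 in the DNMT1 fusion, 7.77 in the EGFP fusion and 7.29 in the DNMT3A fusion. The fusions kept within a narrow range below the control, with a mean log2 ratio of -0.98 ± 0.16 (SD over the 4 fusions). The ratio to pUC19 was 0.447 (95% interval 0.401 to 0.498) in the DNMT3A fusion and 0.477 (0.427 to 0.532) in the EGFP fusion, both called, and 0.524 (0.473 to 0.581) and 0.583 (0.526 to 0.646) in the DNMT1 and DNMT3B fusions, short of 2-fold. With a pseudocount of 1 TPM in place of 0.1 the call in the EGFP fusion was lost, at a log2 ratio of -0.98.

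**Figure D2:**
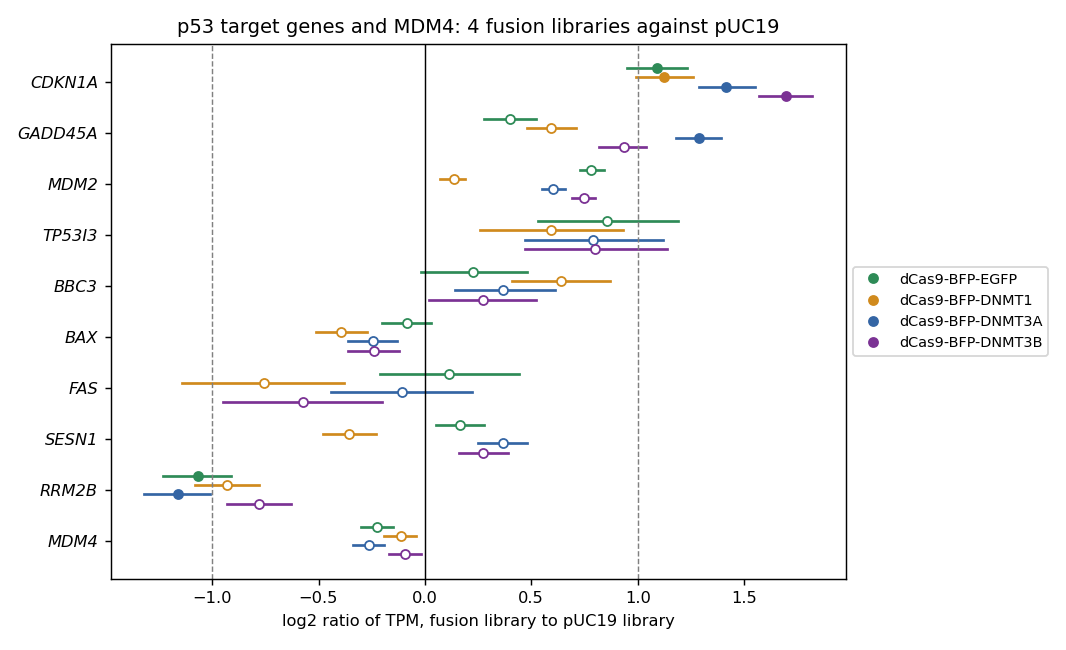
Log2 ratio of TPM to pUC19 (horizontal axis) for the 9 targets and MDM4 (vertical axis) in each fusion library, with 95% exact intervals of read sampling. Filled points were called, dashed lines mark 2-fold, and CDKN1A is the only gene of the 9 with 4 filled points, while RRM2B lies between -1.15 and -0.77 in all fusions.

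The fusions were next compared with each other, since all 4 carried dCas9, BFP and the guides. In the 6 pairs of fusions 0 of the 9 genes reached both thresholds. The shares of all genes called in these pairs were 3.59% (DNMT1 and DNMT3A), 3.54% (DNMT1 and DNMT3B), 1.44% (DNMT1 and EGFP), 0.215% (DNMT3A and DNMT3B), 3.97% (DNMT3A and EGFP) and 3.5% (DNMT3B and EGFP). The genes with the widest log2 differences between fusions were GADD45A at 0.89 (DNMT3A over EGFP), FAS at -0.85 (DNMT1 over EGFP) and SESN1 at -0.72 (DNMT1 over DNMT3A). The summed level of the 9 genes was 271 TPM in pUC19 and 294, 333, 377 and 388 TPM in the DNMT1, EGFP, DNMT3B and DNMT3A fusions. GADD45A was the highest of the 9 in the 3 methyltransferase fusions and BAX in the EGFP fusion and pUC19.

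A fit over all 5 libraries set the 4 fusions against pUC19 with the quasi-likelihood test of edgeR. The spread comes from the 4 different constructs, and the lone pUC19 library is assumed to vary like them. Of the 9 genes 0 passed an adjusted p of 0.05, beside 0.737% of all genes tested, and 5 had an unadjusted p under 0.05, beside 18% of all genes. DESeq2 called 2, CDKN1A and RRM2B, beside 6.63% of all genes. CDKN1A had a log2 fold change of 1.40 (SE 0.285, adjusted p = 0.0627 in edgeR and 2.15e-04 in DESeq2) and was called by edgeR without the filter on low counts (adjusted p = 0.0407, 1 of 9 beside 1.28% of all genes). RRM2B had -0.92 (SE 0.226, adjusted p = 0.0918 in edgeR) and was called by DESeq2 at -0.93 (adjusted p = 0.0161).

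The other 3 genes with an unadjusted p under 0.05 were GADD45A at 0.89 (SE 0.332), TP53I3 at 0.81 (SE 0.283) and MDM2 at 0.63 (SE 0.236), with edgeR adjusted p values of 0.208, 0.187 and 0.209. BBC3 had 0.45 (SE 0.294, edgeR adjusted p = 0.452), and 0.14 after a correction for the GC content and length of transcripts. Its GC content of 69.7% was the highest of the 9 and that of RRM2B, at 35.1%, the lowest. SESN1 (0.18), BAX (-0.19) and FAS (-0.24) had edgeR adjusted p values of 0.656 or more. MDM4 was at -0.12 (SE 0.194, adjusted p = 0.784), while PLAU was at -4.14 (SE 0.576, adjusted p = 0.0255).

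A second edgeR fit asked whether the 2 fusions with a de novo methyltransferase domain, DNMT3A and DNMT3B, differed from the DNMT1 and EGFP fusions. The spread in this fit comes from different constructs within each pair, not from replicates. Of the 9 genes 0 passed an adjusted p of 0.05, beside 11% of all genes tested, and 2, GADD45A and CDKN1A, had an unadjusted p under 0.05, beside 28.8% of all genes. GADD45A was higher in the DNMT3A and DNMT3B libraries than in the other pair by 0.56 on the log2 scale (SE 0.173, edgeR adjusted p = 0.0664). DESeq2 called it at 0.57 (adjusted p = 0.0214) as 1 of 9, beside 16.5% of all genes. The edgeR test also called GADD45A without the DNMT1 fusion (0.74, adjusted p = 0.00236, beside 22.5% of all genes), without the EGFP fusion (0.41, adjusted p = 0.0451, beside 24.7%) and after the GC and length correction (0.60, adjusted p = 0.0352, beside 13.2%). CDKN1A had 0.40 (SE 0.148, edgeR adjusted p = 0.114), and 0.49 without the DNMT1 fusion. Without the EGFP fusion, which sets the pair against the DNMT1 library alone, MDM2 was at 0.42 and SESN1 at 0.56. Both genes were lower in the DNMT1 fusion than in every other fusion. MDM2 was highest in the EGFP fusion left out (69.7 TPM), so its value in this fit does not describe the de novo pair as such.

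The rest of the pathway was read from lists of genes. Of 45 other p53 targets, 2 were called higher and 1 lower in the DNMT1 fusion, 6 and 2 in the DNMT3A fusion, 6 and 1 in the DNMT3B fusion, and 4 and 1 in the EGFP fusion. Higher calls made up 4.44%, 13.3%, 13.3% and 8.89% of the 45 in that order, beside 1.53%, 4.4%, 4.47% and 2.6% of all genes, and lower calls 2.22% to 4.44%, beside 3.1% to 4.96% of all genes. Their median log2 ratios were 0.00, 0.08, 0.03 and -0.11, where those of the 9 genes were 0.13, 0.37, 0.27 and 0.23 and those of all genes of at least 1 TPM -0.14, -0.03, -0.02 and 0.00. The edgeR fit of DNMT3A and DNMT3B against DNMT1 and EGFP called 6 of the 43 tested higher (14%) and 4 lower (9.3%). Shares of all genes in that fit were 6.9% and 4.15%. ABHD4, a lipid hydrolase, was the gene of the 45 called higher in all 4 fusions, with 17.8 TPM in pUC19 and 38.9 to 56.1 TPM in the fusions, and it also passed in the edgeR fit of the fusions against pUC19 (1.44, adjusted p = 0.0463). Named after their values were seen were SESN2, a sestrin, with 140 TPM in pUC19 and 254 to 589 TPM in the fusions, GDF15, a secreted stress cytokine, with 0.257 TPM in pUC19 and 1.16 to 5.37 TPM in the fusions, and SERTAD1, a transcriptional coregulator, with 6.77 TPM in pUC19 and 10.8 to 29.0 TPM in the fusions. SESN2 and GDF15 were each called higher in 3 fusions and SERTAD1 in 2. PMAIP1, which encodes the BCL2 antagonist NOXA, was lower in the DNMT1 fusion (47.0 TPM) than in pUC19 (111 TPM), and AEN, an apoptosis-linked nuclease, was higher in the DNMT3A and DNMT3B fusions (170 and 156 TPM) than in pUC19 (75.8 TPM). ACTA2 was called lower in the DNMT3A and DNMT3B fusions (2.27 and 1.28 TPM, against 4.71 TPM in pUC19). KITLG was called lower in the DNMT3A fusion and PLK2 in the EGFP fusion. The remaining calls of the 45 were higher ones, of PLK3, SFN, TP53INP1 and DRAM1, each in 1 fusion.

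By role, the other targets of cell cycle and growth (12 genes) had 1, 3, 2 and 2 called higher in the DNMT1, DNMT3A, DNMT3B and EGFP fusions and 0, 1, 0 and 1 lower. The 16 apoptosis genes had 0, 1, 1 and 0 higher and 1, 0, 0 and 0 lower. None of the 4 repair genes DDB2, XPC, POLH and FANCC was called in either direction in any fusion. The 13 genes of metabolism and redox had 1, 2, 3 and 2 higher and 0, 1, 1 and 0 lower. Of all genes, in the same order, 1.53%, 4.4%, 4.47% and 2.6% were called higher and 3.63%, 4.96%, 4.29% and 3.1% lower.

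Upstream of the targets, 27 regulators of the p53 network, which include MDM4, had 0, 1, 2 and 0 called higher and 1, 2, 1 and 0 called lower in the DNMT1, DNMT3A, DNMT3B and EGFP fusions. These counts were near the shares of all genes, which were 1.53% to 4.47% for higher and 3.1% to 4.96% for lower calls. None of them was called in the same direction in all 4. In the edgeR fit of the DNMT3A and DNMT3B fusions against the DNMT1 and EGFP fusions, 6 of 26 were called higher and 3 lower. Of all genes in that fit 6.9% were called higher and 4.15% lower. Downstream of p21, 17 genes that the DREAM complex represses when p21 blocks the cyclin-dependent kinases, among them CCNB1, CDK1 and PLK1, had 0 called in either direction in any fusion. Of all genes 5.16% to 9.36% were called in either direction, and for 17 genes 0 calls is near these shares. The median log2 ratios of the 17 were -0.27, 0.06, 0.01 and 0.29 in the DNMT1, DNMT3A, DNMT3B and EGFP fusions. Those of all genes of at least 1 TPM were -0.14, -0.03, -0.02 and 0.00. Whether the DREAM complex acts on the 17 genes in cells with large T was not tested. Of 8 RB family and E2F genes, whose proteins are also partners of large T or act through them, E2F2 was called, higher in 3 fusions. Of all genes 1.53% to 4.47% were called higher. E2F2 went from 31.7 TPM in pUC19 to 69.2 TPM in the EGFP, 94.6 TPM in the DNMT3B and 103 TPM in the DNMT3A fusion.

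Genes of the integrated stress response, a translation-control pathway that runs through ATF4 and shares SESN2 with the list of other p53 targets, were read as well. Of these 15 genes 5, 5, 5 and 8 were called higher in the DNMT1, DNMT3A, DNMT3B and EGFP fusions, beside 1.53%, 4.4%, 4.47% and 2.6% of all genes, and 0 were called lower in any. In the same order 15, 11, 12 and 15 of them lay above pUC19, with median log2 ratios of 0.68, 0.51, 0.71 and 1.08. NUPR1 (5.21 TPM in pUC19, 19.3 to 26.9 TPM in the fusions), PPP1R15A (21.5 against 47.0 to 78.7 TPM) and TRIB3 (36.0 against 84.5 to 116 TPM) were called higher in all 4, and NUPR1 passed in the edgeR fit of the fusions against pUC19 (2.14, adjusted p = 0.0377). Their part in the levels of the 9 genes was not tested.

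**Figure D3:**
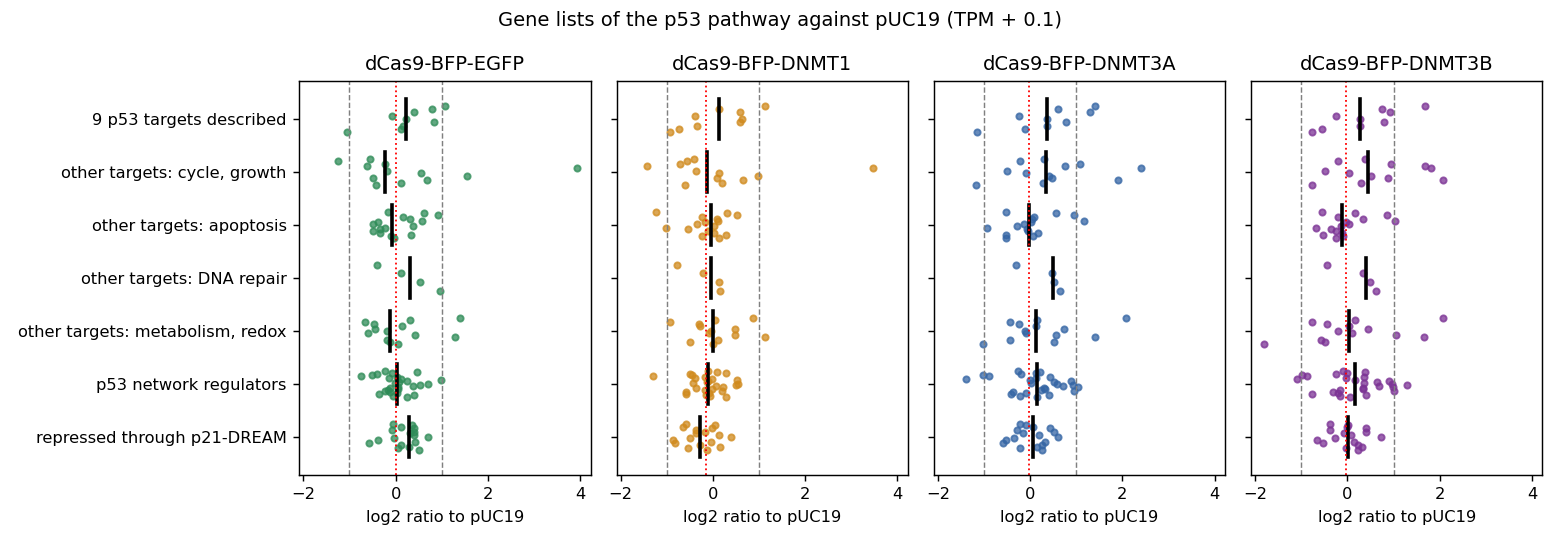
Log2 ratio of TPM + 0.1 to pUC19 (horizontal axis) for each gene of 7 p53 pathway lists (vertical axis), 1 panel per fusion. Points are genes, black bars list medians, the red dotted line the median of all genes of at least 1 TPM and grey dashed lines 2-fold; the 17 genes repressed through p21 and DREAM stay between the dashed lines in all panels.

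Relatives of the 9 genes that are not counted as p53 targets here were set beside them. Of these 11 genes 0, 1, 1 and 0 were called higher and 0, 1, 1 and 2 lower in the DNMT1, DNMT3A, DNMT3B and EGFP fusions, beside 1.53% to 4.47% and 3.1% to 4.96% of all genes. GADD45B, named after its values were seen, was at 22.7 TPM in pUC19 and at 11.4, 6.99, 6.31 and 6.55 TPM in the DNMT1, DNMT3A, DNMT3B and EGFP fusions, below the control where GADD45A was above it, and was called lower in the last 3. GADD45G, the third of that family, was at 1.04 TPM in pUC19 and at 1.19, 0.144 and 0.0817 TPM in the DNMT1, DNMT3A and DNMT3B fusions. It was listed at 0 in the EGFP fusion, the only fusion in which it was called lower. CDKN1B, which encodes the p21 relative p27, ran from 29.3 to 46.8 TPM and CDKN1C from 1.92 to 3.20 TPM, and neither was called in any fusion. RRM2, the small subunit used in S phase, stood at 136 TPM in pUC19 and at 76.3 to 91.8 TPM in the fusions, log2 ratios of -0.84 to -0.57 on the same side as RRM2B and short of 2-fold. RRM1, the large subunit that pairs with either, was at 275 TPM in pUC19 and between 227 and 323 TPM in the fusions. BAK1, a relative of BAX, was above pUC19 in all 4 fusions at log2 ratios of 0.39 to 0.69, without a call, where BAX was below it. BOK, a further relative of BAX, was at 1.55 TPM in pUC19 and called higher in the DNMT3A and DNMT3B fusions (3.89 and 3.93 TPM).

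**Figure D4:**
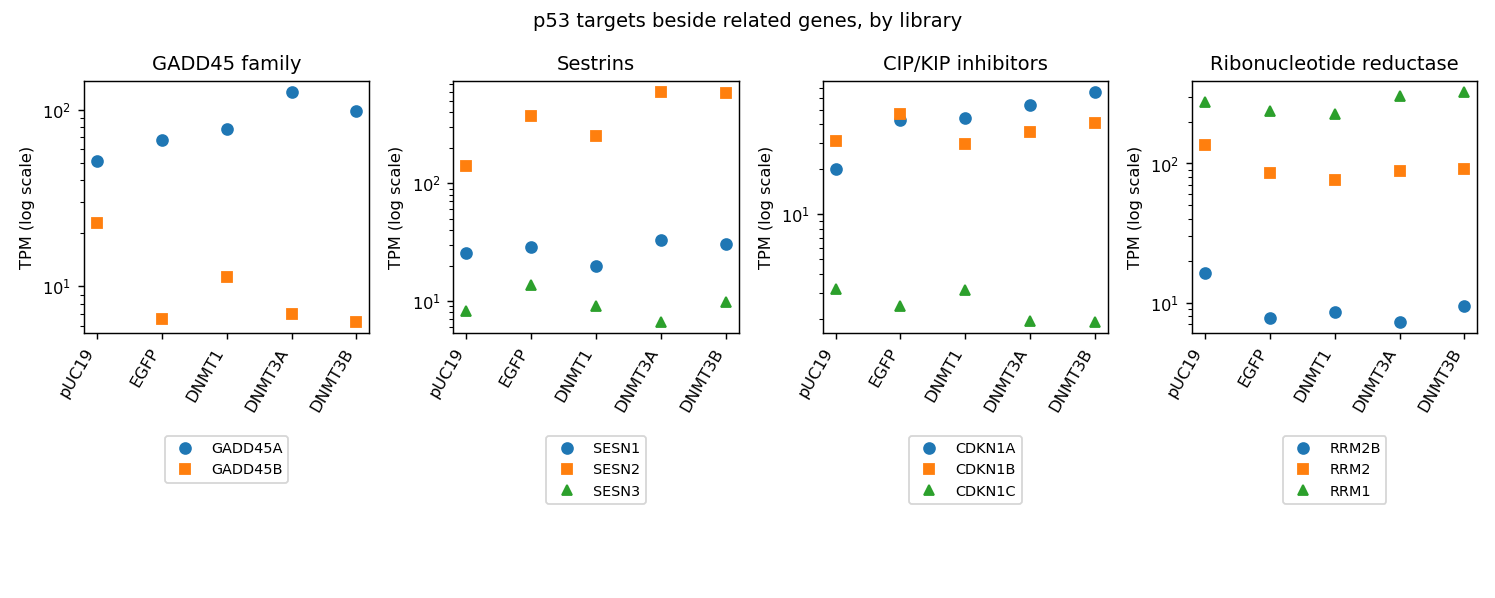
TPM on a log scale (vertical axis) in the 5 libraries (horizontal axis) for GADD45A, SESN1, CDKN1A and RRM2B beside their relatives; points are single libraries. GADD45A is lowest and GADD45B highest in pUC19, and RRM2B and RRM2 are both highest in pUC19.

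CDKN1A, the gene of the 9 with the largest mean log2 ratio, was compared with 13080 genes of at least 1 TPM in all libraries for the likeness of the 4 log2 ratios to pUC19. The nearest were HSPA2 (Euclidean distance 0.144), a heat shock protein gene with 3.47 TPM in pUC19 and 7.58 to 10.4 TPM in the fusions, then ABHD4 (0.213) and FAM219A (0.233). The likeness rests on 4 ratios that share 1 control library.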

How the data were processed

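Poly(A) RNA of 5 HEK293T libraries was sequenced on an Ion Proton, 1 library per group, with groups taken from the sample titles. The authors filtered the reads, aligned them with tmap to RefSeq RNA of hg19 (GRCh37) and kept uniquely mapped reads. The tmap version is not given in the sources used here. The authors deposited whole-number read counts per gene, not normalized. They also deposited TPM, in which each count is divided by the length of its gene before all are brought to a sum of 1000000 per library. A coverage in percent per gene, deposited by the authors without a definition, was not used for any comparison. Genes without a row were set to 0. Unique mapping lowers genes with near-identical copies, and use of strand in counting was not stated.

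The 9 genes, the lists and the tests were chosen with earlier results of these data known. For each pair of libraries the counts of a gene were tested, given both totals, with the exact binomial test (two-sided, conditional) (scipy 1.17.1), adjusted over all genes with a read in either library. Calls and log2 ratios use TPM + 0.1, which understates the change of low genes, while the folds printed with an interval are plain ratios of TPM. Both can differ slightly from the ratios of reads to totals that the test sees. Intervals are 95% exact and, like the test, cover counting error only. Groups of libraries were compared with edgeR 4.0.16 (R 4.3.3; TMM, filterByExpr, quasi-likelihood F-test, Benjamini-Hochberg adjusted p under 0.05). Common coefficients of variation were 0.205 and 0.135 in the 2 fits. The scripts were tested on simulated data. 1 gene of the regulator list is not reported here.

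The genes named were the 9, MDM4, PLAU, those of each list called in the same direction in all 4 fusions or in the edgeR fit of the fusions against pUC19, and the 3 nearest to CDKN1A; other genes named were chosen after their values were seen. Pairs were also tested with 1 TPM as pseudocount, with TMM scaling, above a minimum of 1 TPM, at an adjusted p of at most 0.05, and in edgeR under an assumed coefficient of variation of 0.2. Fits were repeated with DESeq2 1.42.0, with size factors from median ratios, unfiltered, and without each fusion in turn. A correction of each fit for GC content and length (loess, span 0.3) was added after the data were seen. Positions are from GENCODE v44 on GRCh37, and a promoter was called CpG-rich at a GC content of 55% or more and a CpG ratio (observed to expected) of 0.6 or more.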

Additional observations from a re-analysis of the deposited data

Results flagged for a closer look

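Differences between fusions were picked out where the log2 ratios to pUC19 of a gene had opposite signs in 2 fusions and the exact test of the reads of those 2 libraries gave an adjusted p of at most 0.001. SESN1 was below pUC19 in the DNMT1 fusion and above it in the others, and the DNMT1 fusion stood at a log2 ratio of -0.72 to the DNMT3A fusion, -0.63 to the DNMT3B fusion and -0.52 to the EGFP fusion. FAS was above pUC19 in the EGFP fusion and below it in the DNMT1 and DNMT3B fusions, which stood at -0.85 and -0.67 to the EGFP fusion. With 1 library per construct these are differences between libraries, and their cause was not tested.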

How the results depend on the processing

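Of 342 values recomputed under another setting, 314 kept their direction and their side of the threshold, 8 lost a call, 10 gained one and 10 changed sign, and median-ratio size factors and TMM scaling changed none. With a coefficient of variation of 0.2, the members called against pUC19 fell to 0 in each of the 4 fusions, and a pseudocount of 1 TPM left 1 in the EGFP fusion. For the 4 fusions against pUC19, DESeq2 called 2 and edgeR without a filter called 1, and leaving out each fusion gave 0 to 0. Between the de novo pair (DNMT3A and DNMT3B) and the DNMT1 and EGFP fusions, DESeq2 called 1, the GC and length correction called 1 and leaving out each fusion gave 0 to 3: without the DNMT1 fusion 2 and without the EGFP fusion 3. In such fits the lone library left in a group is assumed to vary like the others. Without the DNMT1 or the EGFP fusion the share of all genes called also rose above that of the full fit. The calls gained in those 2 fits are thus not particular to the 9 genes. For the de novo pair, the DESeq2 call stood beside 16.5% of all genes and the GC and length call beside 13.2%. All 10 changes of sign were in the comparison of the de novo pair with the DNMT1 and EGFP fusions. None of them had a call in the full fit or at the changed sign. Leaving out each fusion moved MDM2 from -0.09 (without DNMT1) to 0.42, BAX from -0.14 to 0.03 (without EGFP), BBC3 from -0.44 to 0.11 (without DNMT1), TP53I3 from -0.04 (without DNMT1) to 0.08, FAS from -0.42 to 0.12 (without DNMT3B) and 0.32 (without EGFP), and RRM2B from -0.21 to 0.12 (without DNMT1) and 0.16 (without DNMT3A). The GC and length correction gave TP53I3 -0.09 and RRM2B 0.05. The cause was not tested. No paired analysis was possible because each group had 1 library. Depth limited FAS most, with 85 reads in the DNMT1 fusion.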
